A study of Mus musculus with 4 samples.

Results

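The receptor for adrenomedullin was examined through 5 mouse genes, *Calcrl*, *Ramp1*, *Ramp2*, *Ramp3*, and *Adm*, out of 21887 protein-coding genes in the annotation. For each gene, peaks of H3K27ac, the acetyl mark on a lysine of histone H3 that active promoters and enhancers carry, were collected over the gene body and 10 kb on each side. A peak within 1 kb of either end of the gene was counted as an end peak and any other as distal. *Calcrl* had been picked because peaks of both libraries cover an unusually large share of its body in these same lists, so its coverage is given as a description. The peaks come from ChIP-Seq of 2 libraries of isolated mouse liver sinusoidal endothelial cells (LSECs), named replicate 2 and replicate 3 as their titles number them. The study's methods purify LSECs with anti-CD146 microbeads from mice of 3 genotypes and keep them briefly in culture. These are Col4a1 fl/wt with or without Cdh5 CreERT2, a tamoxifen-inducible Cre of endothelial cells, and the same Cre with dCas9-KRAB. Which of these genotypes gave the libraries, and the strain, age, or treatment of the mice, are not given in the sources used here, nor is whether the libraries came from separate animals. The input library of each was not analysed here.

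Calcitonin receptor-like receptor, encoded by *Calcrl*, is a class B G protein-coupled receptor that reaches the cell surface with a partner called a receptor activity-modifying protein (RAMP). With the RAMP2 or RAMP3 protein it binds adrenomedullin, the peptide encoded by *Adm*, and with RAMP1 it binds calcitonin gene-related peptide. In vascular and lymphatic endothelium, adrenomedullin acting through CALCRL and RAMP2 raises cyclic AMP, relaxes vessels, and tightens the endothelial barrier.

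Replicate 3 stood apart by its length, with 64498 peaks against 26975 in replicate 2, a ratio of 2.39. Of replicate 2 peaks, 99.2% overlapped a replicate 3 peak by at least 1 bp, and of replicate 3 peaks 37.7% overlapped a replicate 2 peak. The lists hold no read counts, so the depth behind each peak is unknown. As a check of the label, replicate 3 peaks lay at an end of all 10 LSEC markers examined, against 53.9% of all protein-coding genes, and 7 of these had a region of both libraries there, against 43.4%. Such regions were found at 0 of 5 hepatocyte, 0 of 5 hepatic stellate cell, 0 of 5 Kupffer cell, 0 of 3 cholangiocyte, and 1 of 3 lymphocyte markers. Of these other markers, *Cd79a* had the region of both libraries, and *Apoa1* and *Epcam* had an end peak in replicate 3 alone. Of the LSEC markers, *Stab2*, *Clec4g*, and *Mrc1* had no such region. Their strongest replicate 3 end peaks had fold enrichments of 5.86, 4.56, and 4.15, respectively. No markers of other endothelium were examined, so the check does not tell LSECs from other endothelial cells. No condition that differs between the libraries is given in the sources used here, so nothing was tested and all values here are descriptions.

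The 4 promoters with a sequence at hand were set beside the end peaks of these genes. They are printed because the receptor gene, the ligand gene, and 2 of its partner genes differ in the peaks found there. RefSeq promoter windows (GRCm38.p6) run from 250 bases before to 50 bases after the annotated start, and the stretches shown are those before the start and outside the annotated body. Capitals mark the ETS core GGAAG (or CTTCC on the other strand) and the GC box GGGCGG (or CCGCCC).
Calcrl, chr2:84425406-84425516, minus strand, 111 bases: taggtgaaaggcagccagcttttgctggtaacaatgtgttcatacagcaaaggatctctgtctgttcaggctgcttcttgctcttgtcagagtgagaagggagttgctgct
Adm, chr7:110627407-110627656, plus strand, 250 bases: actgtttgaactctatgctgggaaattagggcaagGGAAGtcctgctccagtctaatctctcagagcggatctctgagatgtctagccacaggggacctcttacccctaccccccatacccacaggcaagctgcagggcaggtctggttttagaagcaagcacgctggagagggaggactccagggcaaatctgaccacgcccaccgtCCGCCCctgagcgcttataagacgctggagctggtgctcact
Ramp3, chr11:6658283-6658505, plus strand, 223 bases: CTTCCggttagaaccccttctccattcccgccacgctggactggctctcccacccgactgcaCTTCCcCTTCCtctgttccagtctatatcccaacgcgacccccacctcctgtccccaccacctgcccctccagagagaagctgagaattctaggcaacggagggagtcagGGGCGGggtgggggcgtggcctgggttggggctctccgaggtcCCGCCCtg
Ramp1, chr1:91179572-91179821, plus strand, 250 bases: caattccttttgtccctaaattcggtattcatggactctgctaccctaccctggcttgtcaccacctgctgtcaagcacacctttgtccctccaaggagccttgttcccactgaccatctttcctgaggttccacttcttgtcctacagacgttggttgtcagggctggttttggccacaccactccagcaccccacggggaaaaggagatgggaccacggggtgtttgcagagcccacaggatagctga
Replicate 2 peaks lay over 222 of the 300 bases of the *Calcrl* window, 172 of those of *Adm*, and 0 of those of *Ramp3* and *Ramp1*. Replicate 3 peaks lay over all 300 bases for *Calcrl* and *Adm*, 264 for *Ramp3*, and 0 for *Ramp1*. *Ramp1* was thus the promoter with no acetylation peak in either library, and *Ramp3* the one with a peak in replicate 3 alone. The peak summits were close to the annotated start. At *Adm* they were at -2 in replicate 2 and -5 in replicate 3, and at *Calcrl* at -9 and -44, counted in bases from the start with negative values before it. The *Calcrl* start used here, at 84425266, lies inside the annotated body, as do both summits, so neither summit is in the printed stretch. The replicate 3 summit at *Ramp3* was at -32. The ETS core occurred in the windows of *Calcrl*, *Ramp3*, and *Adm*, but also in 71.4% of all 32851 promoter windows. The GC box occurred in the same 3 windows and in 35.7% of all. In *Calcrl* the matches began at -65 and -83, inside the annotated body, and are not in the printed stretch, as is 1 of the 3 GC boxes of *Ramp3*, at -24. ETS core and GC box matches did not overlap each other. The other motifs searched, on both strands, had no match in the 4 windows. The cyclic AMP response element TGACGTCA occurred in 1.79% of all windows and the AP-1 site TGACTCA in 5.20%. The TATA box, searched as TATAAA, occurred in 13.6% and the CCAAT box in 37.4%. The GATA site GATAAG occurred in 7.44% and the forkhead site TGTTTAC in 3.65%. The core of the hypoxia response element was searched only as ACGTG, which occurred in 19.6%. Its other form, GCGTG, was not searched, so the lack of a match does not show that these windows lack the core. A match or its lack describes these letters in these windows and no binding.

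Across the 5 genes, peaks were most numerous at the receptor gene *Calcrl*, which is also the longest, and lacking at *Ramp1*. The bodies measure 94.8 kb for *Calcrl*, 45.4 kb for *Ramp1*, 18973 bp for *Ramp3*, 2164 bp for *Adm*, and 1917 bp for *Ramp2*, and the counts are not scaled to these lengths. In replicate 2, the windows held 12 peaks at *Calcrl*, 2 at *Ramp3*, 2 at *Adm*, 1 at *Ramp2*, and 0 at *Ramp1*. In replicate 3, they held 25, 7, 5, 4, and 0 in the same order. The order of the genes was therefore the same in both libraries apart from the tie of *Ramp3* and *Adm* in replicate 2. Merged regions with a peak of both libraries numbered 8 at *Calcrl*, 2 at *Ramp3*, 2 at *Adm*, 1 at *Ramp2*, and 0 at *Ramp1*. At *Calcrl* and *Adm*, 2 of the 5 genes, a region of both libraries lay within 1 kb of an end, against 43.4% of all protein-coding genes. Replicate 3, taken by itself, had an end peak at 4 of the 5, *Ramp1* being the exception, against 53.9% of all. A distal region of both libraries was present at *Calcrl*, *Ramp2*, and *Ramp3*, 3 of the 5, against 39.6% of all. Per length the order was another, since peaks of both libraries covered 6.79% of the *Adm* body, 6.70% of that of *Calcrl*, 1.30% of that of *Ramp3*, and 0% of those of *Ramp1* and *Ramp2*. The shares over so few genes are a description and set the members apart from other genes in no direction.

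**Figure D1:**
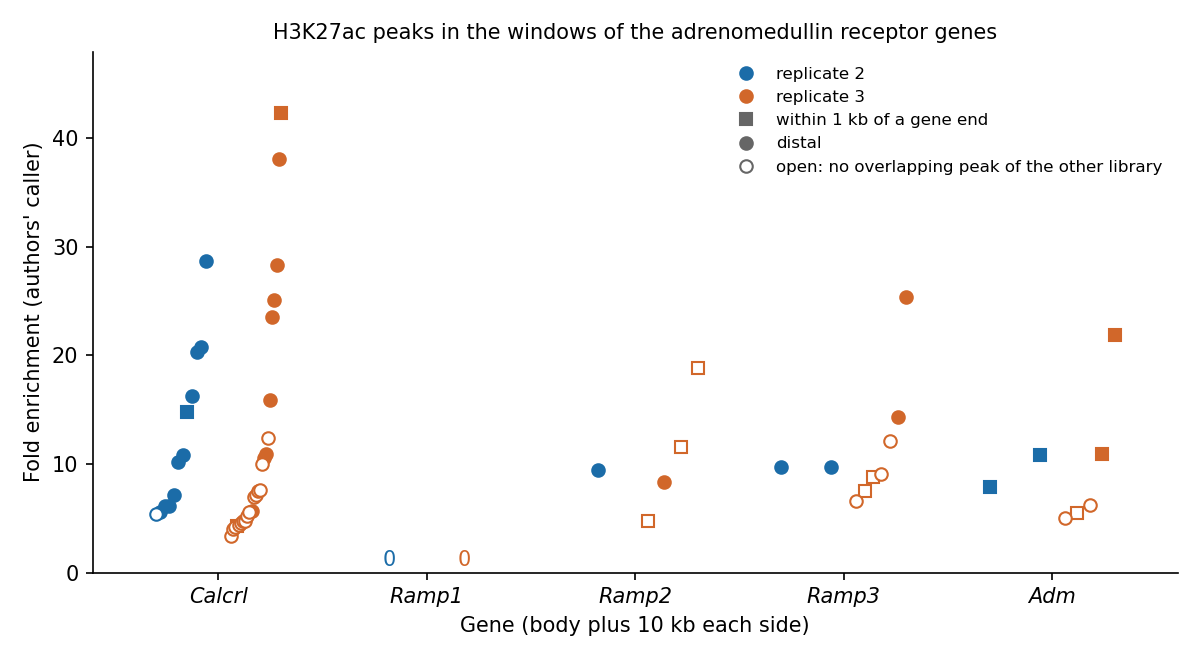
Each point is 1 H3K27ac peak in the window of a gene, with the fold enrichment of the authors' caller on the vertical axis, replicate 2 in blue and replicate 3 in orange. Squares are end peaks, circles are distal peaks, and open symbols have no overlapping peak in the other library. *Calcrl* reaches 28.7 in replicate 2 and 42.3 in replicate 3, and *Ramp1* has 0 peaks in either.

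*Calcrl* lies on chromosome 2 from 84330626 to 84425405 on the minus strand, so that its 5′ end is the higher position. At this end, the peak of replicate 2 at 84425105 to 84425438 was enriched 14.8-fold and that of replicate 3 at 84425055 to 84425593 was enriched 42.3-fold. This was the strongest *Calcrl* peak in replicate 3, but not in replicate 2. Among 9491 genes with an end region of both libraries, the strongest end peak of *Calcrl* was at the 44.6th percentile in replicate 2 and the 43.5th in replicate 3, so its promoter peak was near the middle of the range of such genes. The 3′ end of *Calcrl* had no peak within 1 kb in either library. Of protein-coding genes with a known strand, 42.7% had a region of both libraries at the 5′ end and 4.47% at the 3′ end.

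The other 7 shared regions of *Calcrl* all lay nearer to its 5′ than to its 3′ end, between 20.4 and 46.5 kb from its 5′ end. They spanned 26.7 kb, or 28.1% of the gene body. Joined within 5 kb, they formed a nearer pair of regions and a farther group of 5. The nearer pair, at 84403982 to 84405327, began 20.1 kb from the 5′ end and spanned 1.35 kb. Its stronger region, at 84404618 to 84405327, carried the strongest *Calcrl* peak of replicate 2, with a fold enrichment of 28.7 (93.7th percentile of the list), and 38.1 in replicate 3 (87.3rd percentile). In both libraries this inner region was thus among the most enriched parts of the gene. Its neighbor at 84403982 to 84404504 was weaker, with 6.10 in replicate 2 and 10.9 in replicate 3.

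The farther group of 5 regions, at 84378670 to 84393691, spanned 15.0 kb and lay between 31.7 and 46.7 kb from the 5′ end. Its widest region, at 84385982 to 84390330, covered 4349 bp. Replicate 3 had a peak of 4040 bp and a short one of 188 bp there, and 22 of its 64498 peaks were wider than the former. Replicate 2 had 3 peaks in the same stretch, the widest of 1879 bp, and 40 of its 26975 peaks were wider. The region was therefore marked out by width in both libraries, although its highest fold enrichment was 20.3 in replicate 2 and 15.9 in replicate 3. The region at 84392698 to 84393691 had 20.8 and 25.1, respectively. The regions at 84378670 to 84379071 and at 84384892 to 84385901 ranked low to middling in replicate 2, with 10.2 and 7.15, and high in replicate 3, with 28.3 and 23.6. The region at 84380802 to 84381536 was the weakest of the group in both libraries, with 5.62 and 10.5. Over the 8 shared regions of *Calcrl*, the summits of the strongest peaks of the 2 libraries were 1 to 115 bp apart, with a median of 38.5 bp. Exons and introns were not told apart, since the annotation used gives gene bodies only.

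Replicate 3 had 16 further *Calcrl* peaks without a replicate 2 peak, enriched from 3.41- to 12.4-fold (median 4.99). The 9 replicate 3 peaks with a partner ranged from 5.69 to 42.3, with a median of 23.6. Peaks of the former kind were thus mostly weak, and 1 of them lay upstream of the gene and the others along its whole length. The highest, at 84369332 to 84369718, lay 55.9 kb from the 5′ end. Replicate 2 had 1 peak without a partner, at 84340657 to 84340869 and 84.6 kb from the 5′ end, with a fold enrichment of 5.42, and 226 such peaks were found in its whole list. The distal count at *Calcrl* was thus 11 peaks in replicate 2 and 23 in replicate 3, against 7 regions of both. When each peak had to overlap the other by 50% or more of its own length (reciprocal overlap), 4 distal regions were left.

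**Figure D2:**
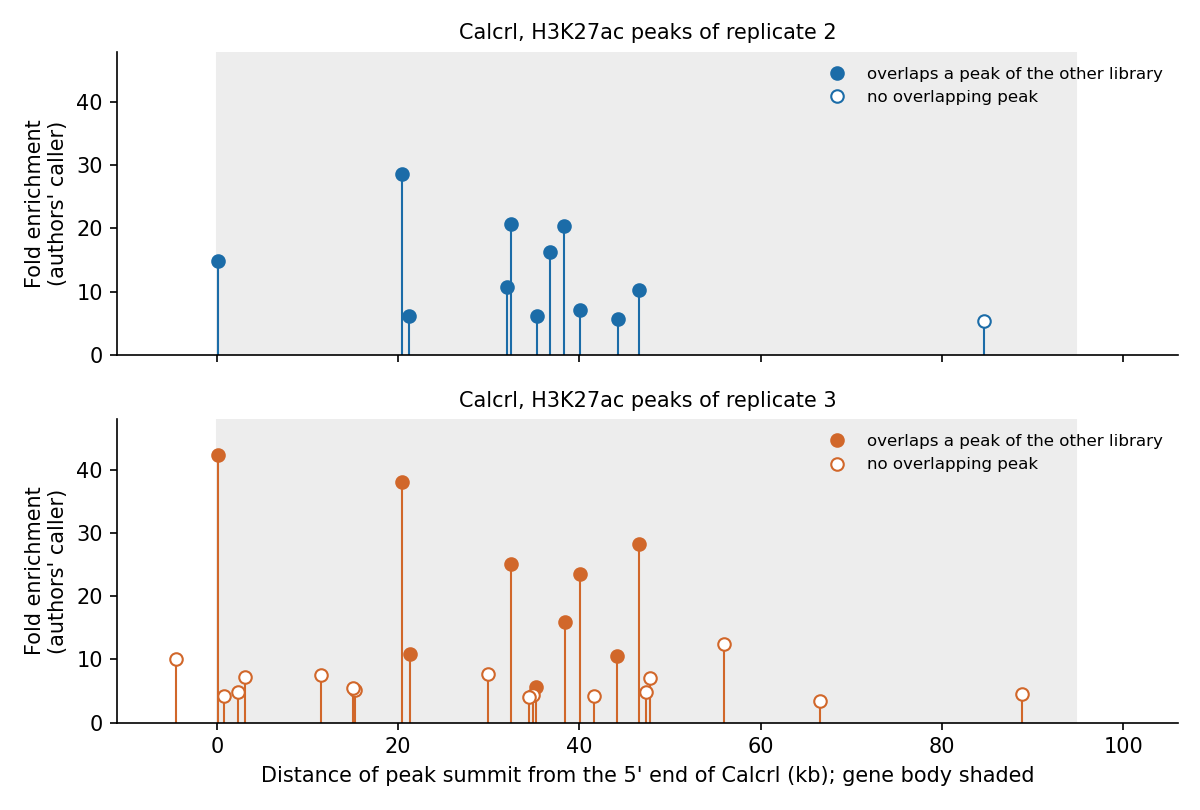
Each vertical line is 1 H3K27ac peak of *Calcrl*, placed by the distance of its summit from the 5′ end in kb, with its fold enrichment as height, for replicate 2 (top) and replicate 3 (bottom). Filled points overlap a peak of the other library, and all but the one at the 5′ end stand between 20.4 and 46.5 kb inside the shaded gene body.

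The gene next to *Calcrl* is *Tfpi*, which encodes an inhibitor of the tissue factor pathway of coagulation and lies 7.45 kb beyond the 5′ end of *Calcrl*. *Tfpi* had 0 end regions of both libraries. A replicate 3 peak between the 2 genes, at 84429836 to 84430046, had a fold enrichment of 10.0 and no replicate 2 partner. Of the 8 shared regions in the *Calcrl* window, all 8 overlapped the body of *Calcrl* itself.

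Bases under peaks of both libraries made up 6354 bp, or 6.70%, of the *Calcrl* body. The median of the 4945 protein-coding genes with bodies of 50 kb or more was 0.272%. This is the value for which the gene was picked, and it ranked 5th among these long genes. Over all 21887 genes it was at the 94.6th percentile, with 1174 genes covered at least as much, itself included, among them *Adm* at 6.79% and *Cdh5* at 12.3%. Just above it were *Dhx57* (6.85%), *Klf13* (6.88%), and *Sh3bp5* (8.40%), and just below it *Cemip2* (6.40%), *Abi1* (6.18%), and *Synpo* (5.99%). *Calcrl*, with a body of 94.8 kb, was longer than the 3 genes just above it, which measured 52.2, 52.6, and 63.5 kb, respectively. Leaving out 1 kb at each end of the body gave 6.52%, so little of the covered length was promoter. By replicate 2 peaks alone the share was 7.06% and by replicate 3 peaks alone 13.6%. With 50% reciprocal overlap it was 1.96%, since the long peaks of replicate 3 and the split peaks of replicate 2 no longer paired. Among the genes of at least 50 kb, the number of shared regions was less exceptional than the covered length. At least 8 shared regions in the window were found at 4.87% of them. Over all protein-coding genes the order was the reverse. There, 263 genes (1.20%) had at least 8 shared regions, against the 1174 covered at least as much.

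**Figure D3:**
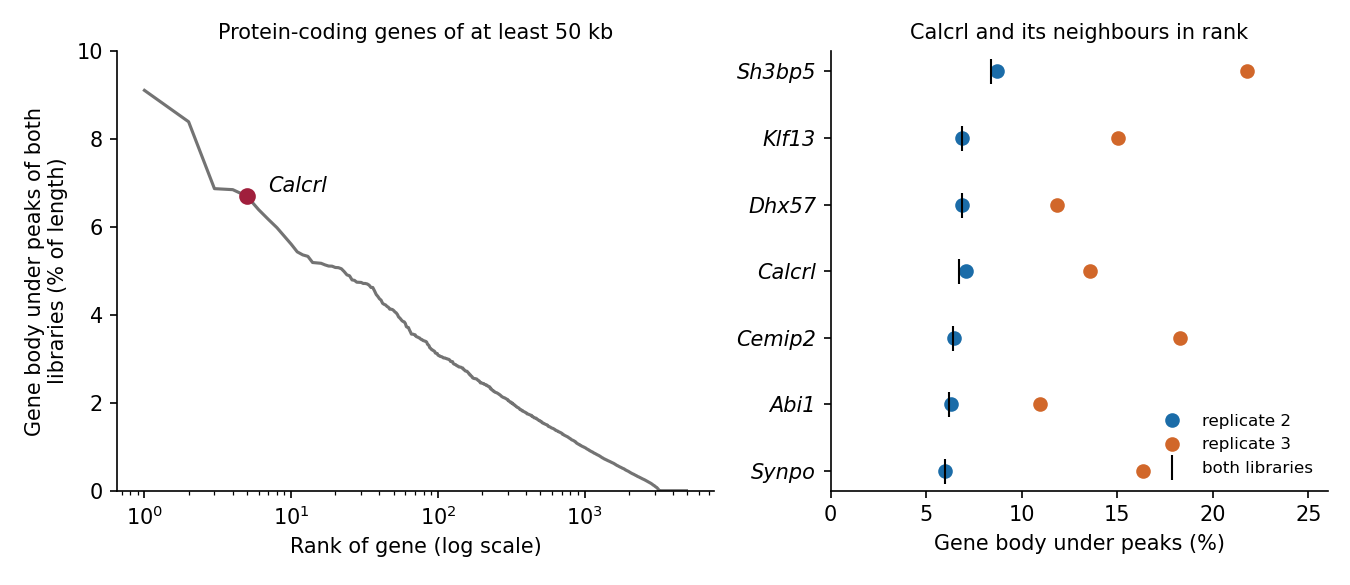
Left, share of the gene body under peaks of both libraries (percent of length) for 4945 protein-coding genes of at least 50 kb, by rank on a log axis, with *Calcrl* at 6.70%. Right, the same share for *Calcrl* and the 3 genes above and below it (black bar), beside the share under the peaks of replicate 2 (blue) and replicate 3 (orange), where *Calcrl* has 7.06% and 13.6%.

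The genes most like *Calcrl* were found by the mean absolute difference of percentiles among these 4945 genes over 5 measures, the covered share and the highest fold enrichment in the body in each library and the density of shared regions. They were *Vmp1* with a mean difference of 2.01 percentile points, *Jam2* (2.02), *Fam102b* (2.03), *Mdfic* (2.16), and *Sash1* (2.38). *Jam2* encodes an endothelial junctional adhesion molecule. Its body of 52.3 kb was covered by peaks of both libraries over 5.20%, with 5 shared regions. *Sash1*, at 223 kb, had 28 shared regions and 5.79% covered. None of the 5 reached the covered share of *Calcrl*.

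The 3 RAMP genes, whose products decide which peptide the receptor binds, differed in their peaks. *Ramp1*, the partner for calcitonin gene-related peptide, lies on chromosome 1 from 91179822 to 91225196 and had 0 peaks in either library over its body and flanks. The nearest peak was 24.8 kb from the body in replicate 2, with a fold enrichment of 31.9, and 24.5 kb in replicate 3, with 95.1. Both lay at the start of the annotated body of *Ube2f*, which encodes a NEDD8-conjugating enzyme and is named here after its values were seen. *Ramp1* thus lay in a stretch without peaks. No peak of either library was found in the windows of 30.0% of all protein-coding genes, and of 18.2% of those with a body of 30 to 60 kb, the range that holds *Ramp1* with 45.4 kb.

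*Ramp2*, the partner with which the receptor binds adrenomedullin in endothelium, is a gene of 1917 bp on chromosome 11 from 101246334 to 101248250. Replicate 3 had 3 end peaks there. The strongest, at 101245994 to 101246714, had a fold enrichment of 18.9 (73.5th percentile of the list), and that at 101248347 to 101248927 had 11.6. The third, at 101246949 to 101247132, had 4.76. Replicate 2 had 0 end peaks at *Ramp2*. The acetylation at this gene therefore rests on replicate 3 alone. An end peak in replicate 3 but not in replicate 2, as at *Ramp2* and *Ramp3*, was found at 10.5% of protein-coding genes. The lone shared region in the window, at 101253050 to 101254160, had 9.49 in replicate 2 and 8.36 in replicate 3. Its shared bases lay 5290 bp from *Ramp2*, and it lay over the body of *Vps25*, a gene of the endosomal sorting machinery 4076 bp from *Ramp2*. *Vps25* had 0 end regions of both libraries, since regions were placed by their shared bases. The full region began 4800 bp from *Ramp2* and thus within 1 kb of the 5′ end of *Vps25*. With 50% reciprocal overlap, or with flanks of 5 kb, 0 shared regions were left at *Ramp2*.

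*Ramp3*, the other adrenomedullin partner, lies on chromosome 11 from 6658506 to 6677478 and had its shared regions away from the gene ends. The region at 6666621 to 6666998, 8.30 kb inside the gene from its 5′ end, was enriched 9.76-fold in replicate 2 and 14.3-fold in replicate 3. The region at 6679660 to 6680832, 2182 bp beyond the 3′ end, had 9.70 and 25.4. These values were in the middle of the replicate 2 list (49.8th and 49.3rd percentiles) and in the upper part of the replicate 3 list (66.6th and 79.7th). The promoter carried a replicate 3 peak at 6658319 to 6658637 with 8.79, and replicate 2 had none. A further replicate 3 peak within 1 kb of the 3′ end, at 6677621 to 6677809, had 7.49. The transcribed pseudogene *Gm11978* overlaps the 5′ part of *Ramp3*, so a peak at the promoter cannot be assigned to one of the 2.

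*Adm*, the ligand gene, had regions of both libraries at each of its ends. It lies on chromosome 7 from 110627657 to 110629820. At the 5′ end, the replicate 2 peak at 110627535 to 110627803 had a fold enrichment of 7.90 and the replicate 3 peak at 110627337 to 110628420 had 21.9. At the 3′ end, 192 bp beyond the gene, the region at 110630012 to 110630934 had 10.8 and 10.9. The stronger end was thus the 3′ end in replicate 2 and the 5′ end in replicate 3. The strongest end peak of *Adm* was at the 28.0th percentile in replicate 2 and the 14.0th in replicate 3 of genes with an end region of both libraries. Compared with *Calcrl*, the end peak of *Adm* was the lower one in both libraries. With 50% reciprocal overlap, 0 shared regions were left at *Adm*, where the replicate 3 peaks were wider than those of replicate 2 (1084 against 269 bp at the 5′ end). The long noncoding gene *Gm28863* overlaps *Adm*, so acetylation of the 2 genes cannot be told apart here.

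The line between end and distal peaks was wide of any replicate 2 peak but close to a replicate 3 peak. In replicate 2, the end peak farthest from a gene end was 453 bp away (*Adm*, 10.8) and the nearest distal peak 2205 bp (*Ramp3*, 9.70). In replicate 3, these were 615 bp (*Ramp2*, 4.76) and 1017 bp (*Adm*, 6.27). With the line at 2.5 kb, 1 of the 2 distal shared regions of *Ramp3* became an end region. Just outside the windows, the first replicate 3 peaks were 13.8 kb from *Calcrl* with a fold enrichment of 16.3, 12.2 kb from *Ramp2* with 4.54, 12.5 kb from *Ramp3* with 4.06, and 11.5 kb from *Adm* with 5.71.

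Whether a replicate 3 peak of these genes had a replicate 2 partner was set beside what other replicate 3 peaks of like fold enrichment (within 10%) showed. For the *Ramp2* peak of 18.9, which had no partner, 75.8% of 2996 like peaks had one. For the *Calcrl* peak of 12.4 without a partner it was 38.0% of 4157, for the *Ramp3* peak of 12.1 without one 35.5% of 4267, and for the *Ramp3* promoter peak 16.3% of 5624. This end peak of *Ramp2* was thus the strongest unpartnered peak of the 5 genes and stood at a level where most peaks were found in both libraries. The *Calcrl* promoter peak and the inner peak of 38.1 both had a partner, as did 99.7% and 99.4% of like peaks. At the low end, the partnered *Calcrl* peak of 5.69 stood where 3.80% of like peaks had a partner.

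**Figure D4:**
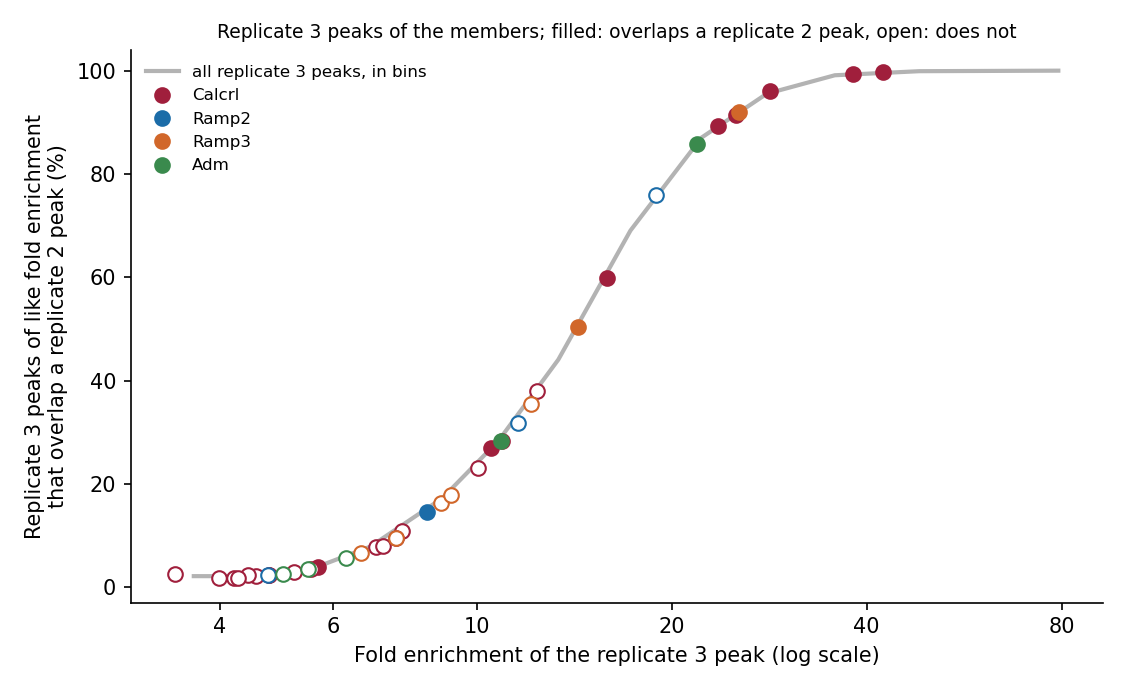
Each point is 1 replicate 3 peak of *Calcrl*, *Ramp2*, *Ramp3*, or *Adm*, placed by its fold enrichment (log axis) and by the percent of replicate 3 peaks within 10% of that value that overlap a replicate 2 peak. Filled points overlap a replicate 2 peak and open points do not, the grey line is the share over all replicate 3 peaks in bins of fold enrichment, and the highest open point is the *Ramp2* peak at 18.9 and 75.8%.

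The adrenomedullin pathway was followed through a list of 40 genes that includes the 5 members. A region of both libraries at a gene end was found at 22 of them (55%), against 43.4% of all protein-coding genes, or at 9 with 50% reciprocal overlap, and 5 more had an end peak in replicate 3 alone. By role, with few genes in each, the counts read against the same 43.4%. Among ligands and their maturation it was 2 of 6, *Adm* and *Pam*, which encodes the enzyme that amidates the carboxyl end of such peptides. The *Pam* end peaks had fold enrichments of 16.3 in replicate 2 and 41.9 in replicate 3. *Calca* and *Iapp*, which encode calcitonin gene-related peptide with calcitonin, and amylin, had no peak of either library in their windows. The related ligand gene *Adm2* had no end peak but 1 distal region of both libraries, with 15.6 in replicate 2 and 56.8 in replicate 3. The shared bases of that region lay outside the *Adm2* body.

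Among receptors and accessory proteins, 2 of 6 had such a region, *Calcrl* and *Crcp*, which encodes a receptor component protein and had 6.10 and 11.0. The calcitonin receptor gene *Calcr* had 0 replicate 2 peaks and 1 replicate 3 peak of 3.91. Of the receptors linked to adrenomedullin as scavenger or former candidate, *Gpr182* had 14.0 in replicate 2 and 39.8 in replicate 3 at an end. These values were close to the 14.8 and 42.3 of *Calcrl*. The shared bases at *Gpr182* lay outside its body. Its strand was not known here and its neighbor genes were not examined, so the region cannot be assigned to *Gpr182*. *Ackr3* had an end peak in replicate 3 only. *Ece1*, for an endothelin-converting enzyme, had 7.46 and 18.3, while *Mme*, for the peptidase neprilysin, had no peak in its window.

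Downstream, 14 of 21 signal transduction genes (66.7%) had an end region of both libraries, against 43.4% of all protein-coding genes. They comprised *Adcy4* among 5 adenylyl cyclase genes, all 5 listed genes of protein kinase A subunits, the cyclic AMP-responsive exchange factor gene *Rapgef3* with its targets *Rap1a* and *Rap1b*, *Creb1*, *Pde3b*, *Grk2*, *Arrb1*, and *Arrb2*. The highest end peaks were those of *Prkaca*, which encodes a catalytic subunit of protein kinase A, with 39.1 in replicate 2 and 152 in replicate 3. *Adcy4* had 10.7 and 43.1, *Rapgef3* 14.0 and 26.3, and *Rap1b* 23.7 and 76.2. The phosphodiesterase genes *Pde4b* and *Pde4d* had no end region of both libraries but 13 and 23 distal ones over bodies of 519944 and 1301793 bp. *Gnas*, for the stimulatory G protein subunit, also had no end region and 2 distal ones. Only the ends of the annotated body were used, so a promoter inside the body of these genes would count as distal. Of the vessel genes, *Cdh5*, for vascular endothelial cadherin, had 16.3 and 36.1 at its end and 8 distal shared regions, 1 more than *Calcrl*. *Nos3* had 6.93 and 30.3, and *Tjp1* had 9 distal regions only. The shared bases in the *Nos3* window lay outside its body, and its neighbor genes were not examined. Those regions therefore cannot be assigned to *Nos3*.

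**Figure D5:**
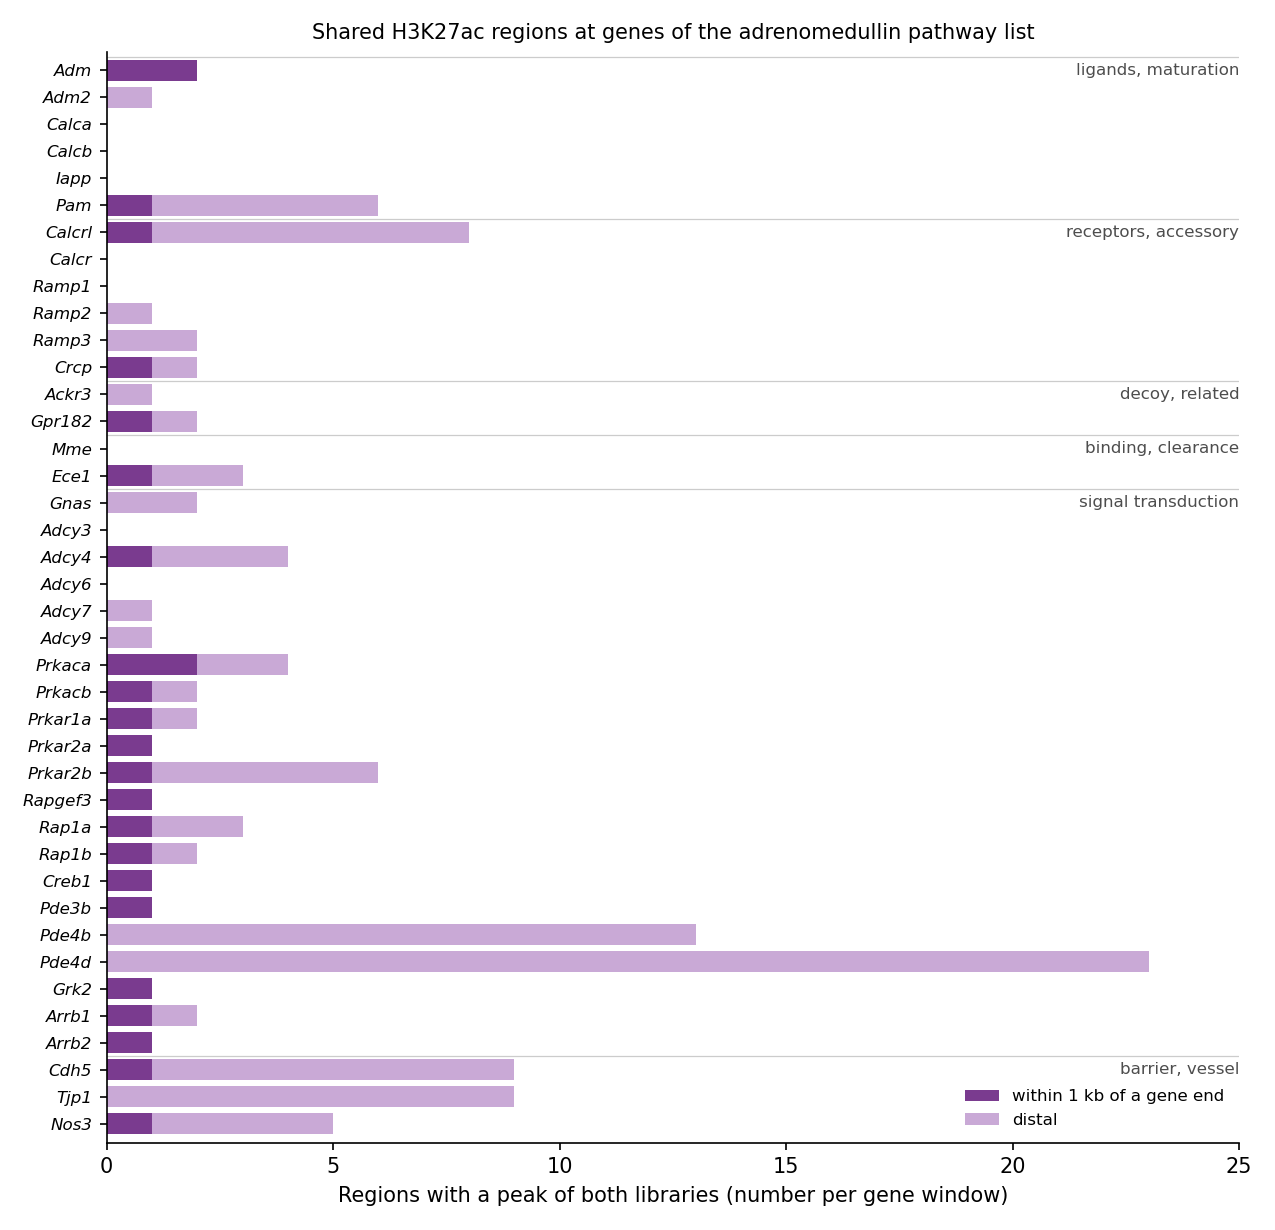
Bars give, for each of 40 genes of the adrenomedullin pathway list grouped by role, the number of H3K27ac regions that both libraries share, within 1 kb of a gene end (dark) or elsewhere in the gene body and 10 kb flanks (light). *Calcrl* has 1 and 7, *Ramp1* 0 and 0, and the long gene *Pde4d* 0 and 23.

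Among 15 genes of class B receptors, the family to which *Calcrl* belongs, *Calcrl* was the only one with an end region of both libraries (1 of 15, or 6.67%, against 43.4% of all protein-coding genes). *Glp1r* and *Gipr* had an end peak in replicate 3 only. *Calcrl* also had the most shared regions, 8 against at most 2 in the others. *Vipr2*, *Pth2r*, and *Crhr1* had no peak of either library. The highest fold enrichment in a window was nevertheless that of *Gipr* in both libraries, at 34.6 against 28.7 for *Calcrl* in replicate 2 and 95.9 against 42.3 in replicate 3. These *Gipr* peaks were distal, and its neighbor genes were not examined, so they cannot be assigned to *Gipr*. Since *Calcrl* entered this list as a member picked for its coverage, its place there is a description and not a test of the family.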

How the data were processed

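H3K27ac ChIP-Seq of mouse LSECs was available as 1 deposited peak list per library. The submitters' processing notes name cutadapt, BWA 0.7.17, Picard 1.67, MACS2 2.0.10, bedtools 2.27.1, and the build mm10, which is GRCm38. Whether the inputs entered the calls is not given in the sources used here, and the paper and the labels describe different library methods (tagmentation and sonication with ligation). For each peak, the authors deposited the fold enrichment as a ratio over background. The deposited lists also give the −log10 of the p-value and of the q-value, and a score that is 10 times the latter. No peak of replicate 2 has a −log10 q under 2.04, and none of replicate 3 one under 2.01. Depth is unknown, and a deeper or stronger library yields more and wider peaks.

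From these lists, peaks were counted in each gene body plus 10 kb, split at 1 kb from either gene end, and taken as shared from an overlap of 1 bp. A shared region is the merged span of such peaks, placed by its shared bases. Gene bodies came from RefSeq (GRCm38.p6), and strand from the RefSeq promoter table, which matched 4 of the 5 members. The genes named were the members, the listed pathway and class B genes, genes overlapping a window, the 3 genes on each side of *Calcrl* in rank, and the 5 most like it. *Ube2f*, the markers of other cell types with an end peak, and the LSEC markers without a shared end region were named after their values were seen. The members and lists were chosen with earlier results of these data known. The counting was tested on simulated data. A gene of the pathway list is not reported here and was left out of its counts. No statistical test was made. Alternatives took peaks at a q-value up to 1e-05, equal numbers of peaks per library, 50% reciprocal overlap, other windows, and each library alone. Scripts ran under Python 3.11.15 with pandas 2.3.3, numpy 2.4.6, and matplotlib 3.10.9.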

Additional observations from a re-analysis of the deposited data

How the results depend on the processing

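No paired analysis was possible because no condition that differs between the analysed libraries is given, and no input of the same number was analysed. Of 139 alternatives over 19 results, 94 stayed within the limit, which was a factor of 1.5 for counts and the spread between the libraries for shares, and 45 moved. For these, the cause was not tested, beyond what an alternative itself changes by dropping peaks or moving a window.

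Shared regions at *Calcrl* (8, of which 7 distal) were 5 and 4 under 50% reciprocal overlap, and 13 and 12 with 50 kb on each side. Leaving out either library gave 12 to 25, the distal ones from 11 to 23, and the end regions (1) from 1 to 2. At *Ramp1* (0 and 0), 50 kb on each side gave 2 and 2. At *Ramp2* (1 and 1), the counts were 0 and 0 with reciprocal overlap, 5 kb on each side, or the gene body alone, and 4 and 4 with 50 kb. Either library left out gave 1 to 4 in all, and 0 to 3 end regions (0). At *Ramp3* (2 and 2), they were 1 and 1 with the body alone and 5 and 5 with 50 kb. Counting 2.5 kb as a gene end left 1 distal and gave 1 end region. Either library left out gave 2 to 7, of which 2 to 5 distal, and 0 to 2 end regions (0). At *Adm* (2, all at an end), they were 0 with reciprocal overlap, in the window and at the ends, 1 with the body alone, and 6 with 50 kb, of which 4 distal. Either library left out gave 2 to 5, and 0 to 2 distal ones (0).

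The covered share of *Calcrl*, 6.70%, was 1.96% with reciprocal overlap, and 7.06% to 13.6% when either library was left out. Its percentile, 99.9, was 97.9 with reciprocal overlap, 98.4 among genes of at least 10 kb, and 98.4 by shared regions per 10 kb. Leaving out either library gave 99.6 to 99.96. The pathway genes with a shared end region (22) were 9 with reciprocal overlap. The class B genes (1) were 2 with 2.5 kb as a gene end, and 1 to 3 when either library was left out. In each range the higher count of regions was without replicate 2, whose shorter list limits every count of shared regions.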
